A study of Mus musculus with 4 samples.

Results

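The genes of the absorptive enterocyte, the cell type that covers the intestinal villus and digests and takes up nutrients, were examined in the intestinal crypts of mice with and without CREPT. The set held 41 genes, listed by name for their part in terminal digestion, nutrient transport and lipid absorption, and they were found among the 53845 genes of the count table by gene symbol. All 41 were among the 17504 genes tested. The study deleted CREPT, the product of Rprd1b and a regulator of transcription by RNA polymerase II, in mouse intestine and sequenced RNA from crypts that had been released with EDTA. Its methods describe passing small-intestinal epithelium through a strainer to hold back the villi. Since fragments of villus can pass with the crypts, each knockout library was set separately against both wild-type libraries.

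There were 2 groups of 2 libraries each, all from C57BL/6 mice. The first group was wild type (WT). In the second, called Vil-CREPTKO, a Cre recombinase under the villin promoter acted on a floxed CREPT gene (CREPT fl/fl), so that the gene was removed without induction along the whole epithelium, crypt and villus alike, and kept in other cells. The libraries were biological replicates according to the methods, and the labels give neither the age nor the sex of the animals behind them. The libraries held 47241049 to 49369315 counts in genes. Levels are given as CPM, the count of a gene relative to the total of its library after scaling by the trimmed mean of M-values (TMM), and levels of different genes were ranked as CPM per kb of exon. Ratios of a pair of genes are given in CPM and were compared only between libraries, where gene length cancels.

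Rprd1b stood at 60.5 and 61.6 CPM in the WT libraries and at 26.3 and 29.0 CPM in the Vil-CREPTKO libraries (adjusted p = 0.0041, edgeR quasi-likelihood test), so that the labels and the targeted gene went together. WT replicate 2 was the only library with a high level of Xist, at 863 CPM against 0.299 to 0.529 CPM in the other 3, and the only one with no count in 4 Y-linked genes. A difference between the WT libraries and a difference in sex therefore cannot be told apart. Both Vil-CREPTKO libraries had Y-linked counts (164 and 153 CPM), so sex was also unbalanced between the groups. Vil-CREPTKO replicate 1 had the largest share of mitochondrial counts, 10.2% against 6.75% to 7.62%.

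Enterocytes arise from crypt stem cells by way of dividing progenitors, and they switch on digestive enzymes and transporters as they move up onto the villus. Their apical membrane is folded into microvilli, the brush border, where peptidases, disaccharidases and phosphatases cut the last bonds in food molecules and where transporters bring in sugars, peptides and amino acids. Fatty acids and monoglycerides are taken up, rebuilt into triglyceride and packed with apolipoproteins into chylomicrons. Genes for these steps are expressed at low levels in the crypt and rise towards the villus, under transcription factors of the HNF4 and CDX families.

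Slc7a9 was the 1 gene of the set that differed between the groups, and it was lower in Vil-CREPTKO. Slc7a9 encodes the light chain b0,+AT of the transporter for cystine and dibasic amino acids, and Slc3a1 encodes rBAT, the heavy chain with which it pairs. The 2 genes lie in GENCODE M21 at chr7:35448796-35466036 and chr17:85028376-85064236, both on the plus strand. Sequences of 4 promoters are shown for genes on which the results below turn: Slc7a9, its partner Slc3a1, Fabp1, which had the highest level of the set per kb, and Apoa4, whose ratio to its neighbour Apoa1 is described below. Each window runs from 250 bases before to 50 after a transcript start, from RefSeq on GRCm38.p6, 5′ to 3′ on the gene's strand, and Slc7a9 has a further, overlapping window for a second start. Capitals mark the motifs searched on both strands, none of which overlap in these 4 windows. The HNF4-type motif was searched as CAAAGTC or, in its other form, as CAAAGTT. The CDX-type motif was searched as TTTATTG or, in its other form, as TTTATGG. The GATA-type motif was AGATAA. The HNF1-type motif was GTTAAT.
Slc7a9, chr7:35448842-35449141, plus strand: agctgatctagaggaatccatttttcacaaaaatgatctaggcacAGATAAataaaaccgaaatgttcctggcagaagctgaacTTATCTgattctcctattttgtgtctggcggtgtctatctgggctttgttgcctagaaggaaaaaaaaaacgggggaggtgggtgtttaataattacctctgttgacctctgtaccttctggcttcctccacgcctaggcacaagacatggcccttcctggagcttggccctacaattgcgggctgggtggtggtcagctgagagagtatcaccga
Slc3a1, chr17:85028097-85028396, plus strand: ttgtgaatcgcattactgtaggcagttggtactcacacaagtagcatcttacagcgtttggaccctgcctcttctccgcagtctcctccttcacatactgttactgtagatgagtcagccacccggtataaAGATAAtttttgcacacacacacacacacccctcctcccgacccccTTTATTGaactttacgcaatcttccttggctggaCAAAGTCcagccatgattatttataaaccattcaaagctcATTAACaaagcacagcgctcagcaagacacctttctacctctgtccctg
Fabp1, chr6:71199629-71199928, plus strand: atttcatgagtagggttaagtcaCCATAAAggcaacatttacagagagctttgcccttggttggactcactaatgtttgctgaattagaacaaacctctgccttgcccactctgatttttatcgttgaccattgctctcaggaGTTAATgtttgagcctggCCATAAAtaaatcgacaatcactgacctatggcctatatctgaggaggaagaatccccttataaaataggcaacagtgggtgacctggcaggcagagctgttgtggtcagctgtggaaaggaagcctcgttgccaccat
Apoa4, chr9:46240594-46240893, plus strand: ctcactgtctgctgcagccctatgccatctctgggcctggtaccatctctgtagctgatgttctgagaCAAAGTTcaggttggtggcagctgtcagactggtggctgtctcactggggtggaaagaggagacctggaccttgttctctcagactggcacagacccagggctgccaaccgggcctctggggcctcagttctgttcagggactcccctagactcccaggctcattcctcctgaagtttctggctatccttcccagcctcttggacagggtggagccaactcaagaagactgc

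The Slc7a9 window held AGATAA once on each strand and no HNF4-type or CDX-type motif. Both Slc7a9 windows begin downstream of the start that GENCODE gives the gene, so the bases before that start were not searched. The Slc3a1 window held 4 motifs, 1 of each type, Fabp1 held TTTATGG at 2 places and GTTAAT at 1, and Apoa4 held CAAAGTT once. Promoter windows were found for 35 of the 41 genes. These genes had 40 windows, as some have more than 1 start. An HNF4-type motif was present for 8 of the 35 genes, in 20% of their windows against 8.07% of all 32851 windows of the same length. A CDX-type motif was present for 5 of 35 genes, in 12.5% of their windows against 7.20% of all. AGATAA was present for 9 genes, in 22.5% of windows against 11.2%, and GTTAAT for 7, in 17.5% against 7.10%. These are matches of letters and not shown binding sites.

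Enterocyte genes were well represented in these crypt preparations. Counts of the 41 genes made up 4.05% and 4.98% of all counts in the WT libraries and 5.61% and 4.06% in Vil-CREPTKO replicates 1 and 2. In WT, the highest level per kb was that of Fabp1, the liver-type fatty acid binding protein, at 3580 CPM per kb. Rbp2, which binds retinol in the cell, followed at 2665, then Fabp2, the intestinal fatty acid binding protein, at 2597, and Apoa1, an apolipoprotein of chylomicrons and HDL, at 2472 CPM per kb. The order of Rbp2, Fabp2 and Apoa1 was not beyond the spread between the WT libraries. At the other end stood Fabp6, the ileal bile acid binding protein, at 0.805 CPM per kb and Slc10a2, the ileal bile acid transporter, at 0.202. Both mark the distal small intestine. They were above the limit that 3 counts set in every library, 0.0588 to 0.0690 CPM, but had only 10 to 67 counts each.

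**Figure D1:**
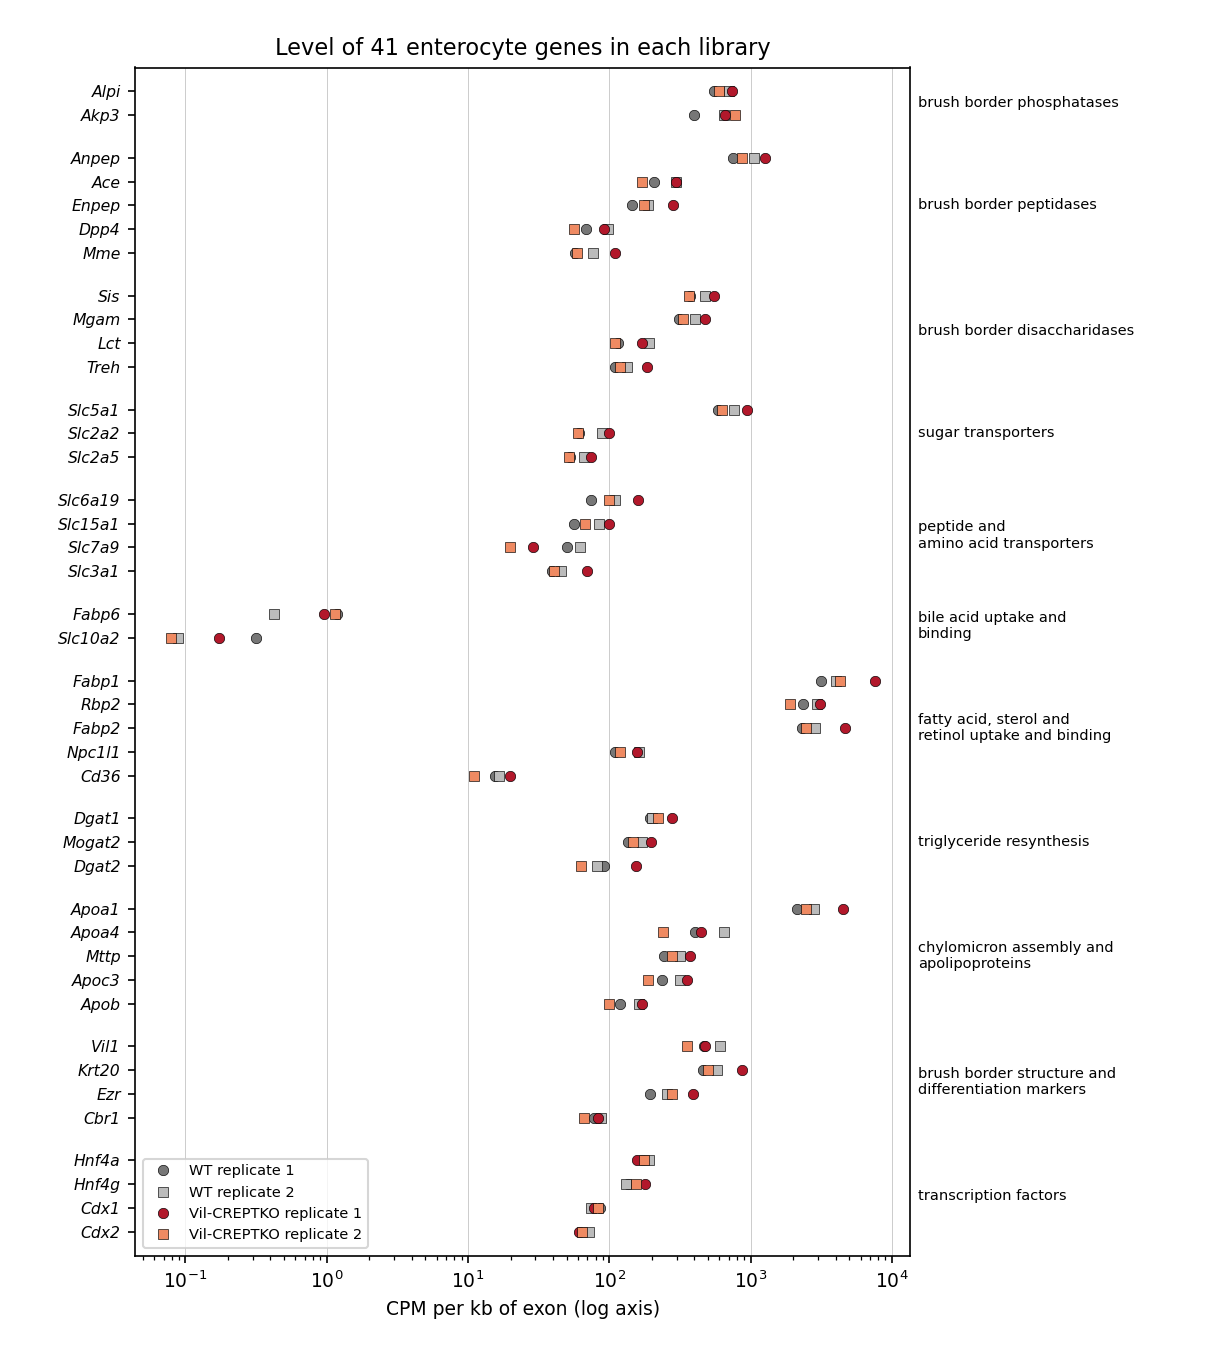
Level of each of the 41 genes in each library, as CPM per kb of exon on a log axis, with genes grouped by role and ordered within a role by WT level. Fabp1, Rbp2, Fabp2 and Apoa1 lie highest, Slc10a2 and Fabp6 lie far below every other gene, and for most genes the red circle of Vil-CREPTKO replicate 1 lies furthest right.

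Across the set, the groups were not separated. By edgeR's quasi-likelihood test with Benjamini-Hochberg adjustment over all genes, 1 of 41 genes was lower and 0 were higher in Vil-CREPTKO, where 2.29% of all genes were lower and 0.423% higher. At an unadjusted p under 0.05, 1 gene was lower and 2 were higher, against 9.76% and 4.49% of all genes. DESeq2 called 1 gene of the set lower and 1 higher, where it called 654 of all genes lower and 182 higher. The median log2 fold change over the 41 genes was 0.16 against -0.0060 over all genes, with 27 fitted values above 0 and 14 below. This median ran from -0.089 without Vil-CREPTKO replicate 1 to 0.37 without Vil-CREPTKO replicate 2. In bulk RNA, fewer cells of a type and less RNA per cell cannot be told apart. With 2 libraries against 2, an exact permutation test of a single value cannot go below p = 0.333, so the p-values rest on the spread pooled across genes.

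The larger pattern was between libraries of 1 genotype. Vil-CREPTKO replicate 1 lay above the WT mean in 35 of 41 genes, where 48.6% of all genes did so, with a median difference of 0.38 in log2 CPM. Vil-CREPTKO replicate 2 lay above the WT mean in 10 of 41 genes, where 50.3% of all genes did so, with a median of -0.077. Set directly against each other, replicate 1 was above replicate 2 in 36 of 41 genes (49.9% of all genes), by a median of 0.59. It was the highest of the 4 libraries in 28 genes (26.2% of all genes) and above both WT libraries in 29 (35.4%), while replicate 2 was below both in 16 (36.3%). The WT libraries were ordered in the same way, with replicate 2 above replicate 1 in 36 of 41 genes (49.7% of all genes), by a median of 0.36. Which genes moved most within 1 genotype was not the same as in the other: over the 41 genes the Pearson correlation of these differences was 0.11, as a description.

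Taken alone against the WT pair, Vil-CREPTKO replicate 1 had 1 gene lower (Slc7a9) and 1 higher (Slc3a1) after adjustment, against 1.73% and 0.891% of all genes. With the TMM factors computed anew for these 3 libraries, 0 genes were higher, as Slc3a1 then had an adjusted p of 0.053 (edgeR). Vil-CREPTKO replicate 2 had 1 gene lower (Slc7a9) and 0 higher, against 1.98% and 0.383% of all genes. At an unadjusted p under 0.05, replicate 1 had 11 genes higher and 1 lower (6.27% and 9.72% of all genes), and replicate 2 had 0 higher and 5 lower (3.07% and 8.98%). In these fits the lone Vil-CREPTKO library is assumed to vary as the WT libraries do.

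**Figure D2:**
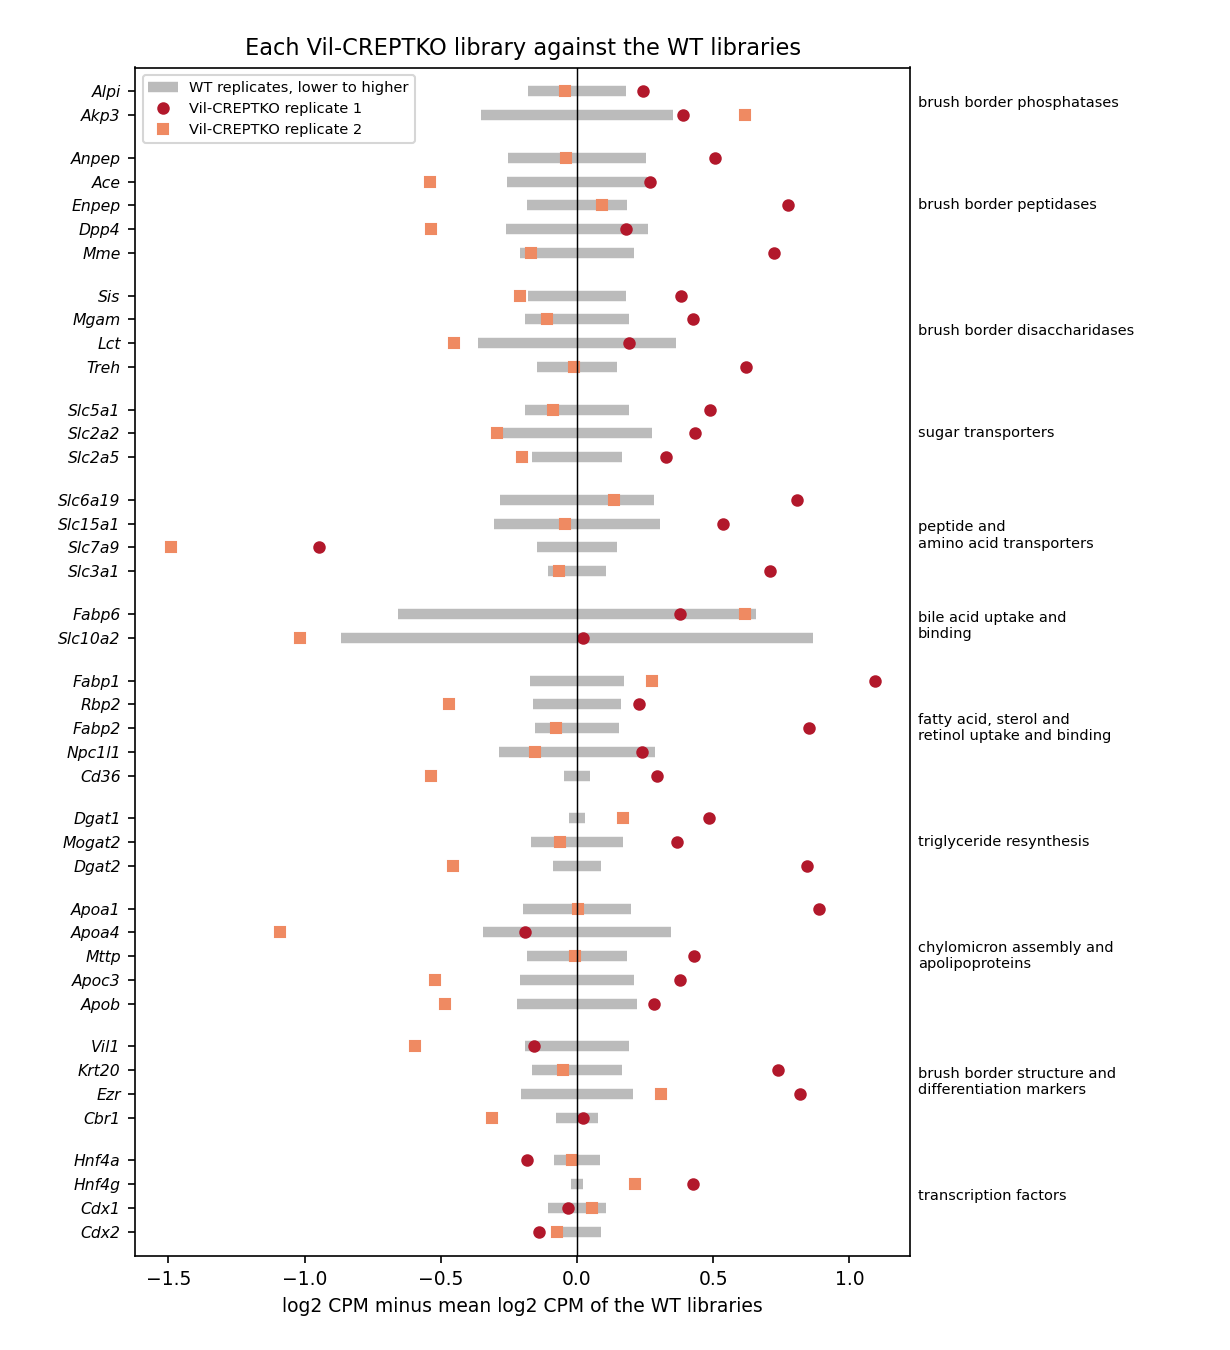
Difference of each Vil-CREPTKO library from the WT mean in log2 CPM for the 41 genes, with grey bars running from the lower to the higher WT library around the WT mean at 0. Replicate 1 lies to the right of 0 in 35 genes and replicate 2 in 10, while both libraries lie far to the left only for Slc7a9.

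Lists of other markers were read in the same libraries. Summed over 7 genes of villus tip enterocytes, WT had 763 and 909 CPM and Vil-CREPTKO replicates 1 and 2 had 1581 and 1076 CPM. The order within each genotype was that of the set. Replicate 2 was above both WT libraries here, but the summed set in replicate 2 (39898 CPM) lay between them (37908 and 49948 CPM). For 6 genes of crypt base stem cells the sum was 1935 and 1538 CPM in WT and 1277 and 1822 CPM in Vil-CREPTKO. That order was the reverse within each genotype, with Vil-CREPTKO replicate 1 below replicate 2 in all 6. Proliferation genes were in the WT order but in the reverse order in Vil-CREPTKO, and blood, stromal and immune genes were higher in WT replicate 1. For 8 proliferation genes the sum was 1043 and 1118 CPM against 944 and 1166 CPM. Blood genes summed to 28.4 and 12.4 CPM against 66.5 and 16.8 CPM, and 6 stromal genes to 15.2 and 13.9 CPM against 23.0 and 10.3 CPM. The 6 immune genes summed to 215 and 148 CPM against 156 and 123 CPM, and 4 smooth muscle genes to under 1 CPM in every library. None of the genes on these 7 lists passed the test between the groups. The part that the share of villus in each preparation has in the values above was not tested.

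Among the peptide and amino acid transporters, Slc7a9 was lower in both knockout libraries, while the order within each genotype was that of the rest of the set. Its level was 135 and 165 CPM in WT and 77.5 and 53.0 CPM in Vil-CREPTKO, or 150 ± 21.7 and 65.3 ± 17.3 CPM (mean ± SD, n = 2 in each group). Both knockout libraries lay below both WT libraries, at 43.5% of the WT mean. The log2 fold change was -1.20 with a standard error of 0.19 (adjusted p = 0.016, edgeR quasi-likelihood test). Against the WT pair it was lower in replicate 1 (log2 fold change -0.95, adjusted p = 0.024) and in replicate 2 (-1.50, adjusted p = 0.0035), and it passed in each fit that left out 1 library, with -1.50 to -0.95. The call was lost in 1 alternative, with the libraries scaled on the set itself, as described below.

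Its partner Slc3a1 stood at 89.3 and 103 CPM in WT and at 157 and 91.7 CPM in Vil-CREPTKO. Replicate 1 lay above both WT libraries and replicate 2 between them. The log2 fold change was 0.37 with a standard error of 0.23 (adjusted p = 0.53, edgeR), and in replicate 1 alone Slc3a1 was higher than in WT (0.71 as the difference in log2 CPM, adjusted p = 0.045, or 0.053 with the TMM factors computed anew, where the call was lost). The ratio of Slc7a9 to Slc3a1 in CPM was 1.51 and 1.60 in WT against 0.493 and 0.578 in Vil-CREPTKO. This ratio is a description, as were all those below, since the pairs were chosen after the values were seen. How many of all gene pairs have ratios that separate the groups was not counted. Of single genes, 24.2% lay below and 21% above WT in both knockout libraries without overlap. Slc3a1 overlaps the gene Prepl on the other strand, and 24.8% of its 50-base stretches also occur in another gene's transcripts. Prepl itself stood at 50.6 and 54.5 CPM in WT and 39.5 and 35.4 CPM in Vil-CREPTKO, and without a stated strand setting reads of the 2 genes in the shared stretch cannot be told apart.

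The most abundant gene of this role per kb was Slc6a19, the transporter of neutral amino acids B0AT1. It stood at 374 and 553 CPM in WT and 797 and 500 CPM in Vil-CREPTKO, with a log2 fold change of 0.48 and a standard error of 0.27 (adjusted p = 0.48, edgeR). Slc15a1, the peptide transporter PEPT1, had 273 and 416 CPM in WT and 488 and 326 CPM in Vil-CREPTKO. For both genes replicate 1 was the highest library and replicate 2 lay between the WT libraries. Slc7a9 was thus the 1 of 4 transporters of this role in which replicate 1 did not exceed WT.

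The sugar transporters followed the order of the libraries closely. Slc5a1, the sodium-glucose cotransporter SGLT1, was the most abundant per kb and stood at 2400 and 3133 CPM in WT and at 3845 and 2578 CPM in Vil-CREPTKO (fitted log2 fold change 0.22, standard error 0.28, adjusted p = 0.81, edgeR). Slc2a2, the basolateral glucose transporter GLUT2, and Slc2a5, the fructose transporter GLUT5, had log2 fold changes of 0.09 and 0.08. In all 3 replicate 1 was the highest library. Set over Slc5a1, a gene that moves with the set, Slc7a9 was at 0.0561 and 0.0528 in WT against 0.0201 and 0.0206 in Vil-CREPTKO, a narrower spread within each group than in CPM.

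None of the brush border enzymes passed the test in either direction. Anpep, aminopeptidase N, led the 5 peptidases at 3083 and 4390 CPM in WT and 5225 and 3577 CPM in Vil-CREPTKO (fitted log2 fold change 0.24, standard error 0.30, adjusted p = 0.80, edgeR). The peptidases Enpep and Mme were highest in replicate 1, at 1333 and 1261 CPM, while Dpp4 and Ace were lowest in replicate 2, at 355 and 899 CPM. Sis, sucrase-isomaltase, led the disaccharidases at 2777 and 3567 CPM in WT and 4100 and 2726 CPM in Vil-CREPTKO (0.11, standard error 0.28, adjusted p = 0.92, edgeR). The other disaccharidases, Mgam, Lct and Treh, which split starch fragments, lactose and trehalose, had log2 fold changes of 0.17, -0.14 and 0.33.

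The 2 alkaline phosphatases differed in which knockout library was the higher, and neither passed the test. Alpi stood at 1278 and 1644 CPM in WT and 1712 and 1407 CPM in Vil-CREPTKO (0.09, standard error 0.23, adjusted p = 0.91, edgeR). Akp3, a related alkaline phosphatase whose gene lies beside it, stood at 832 and 1353 CPM in WT and 1390 and 1624 CPM in Vil-CREPTKO (0.46, standard error 0.26, adjusted p = 0.49, edgeR). Akp3 was the 1 gene of the 41 that was highest in Vil-CREPTKO replicate 2. Unlike the other ratios given here, that of Akp3 to Alpi in CPM overlapped between the groups. It was 0.651 and 0.823 in WT, with Vil-CREPTKO replicate 1 between them at 0.812 and replicate 2 above both. The 2 transcripts share few stretches, since 2.40% of the 50-base stretches of Alpi and 1.57% of those of Akp3 occur in another gene.

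Among the genes of fat uptake and binding, Fabp1 had the largest fitted value of the set above 0. It had 1745 and 2215 CPM in WT and 4196 and 2380 CPM in Vil-CREPTKO, so both knockout libraries lay above both WT libraries, replicate 2 by little. The log2 fold change was 0.73 with a standard error of 0.31 (unadjusted p = 0.043, adjusted p = 0.33, edgeR). DESeq2 and edgeR without a filter on low counts put its adjusted p at 0.045 and 0.034. The excess was mostly that of replicate 1, at 2.12-fold the WT mean against 1.20-fold in replicate 2. Fabp2 was at 2240 and 2773 CPM in WT and 4497 and 2362 CPM in Vil-CREPTKO, and there replicate 2 lay between the WT libraries. Rbp2, Cd36, a fatty acid translocase, and Npc1l1, the cholesterol transporter, had log2 fold changes of -0.09, -0.06 and 0.03.

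The bile acid genes were too low to compare closely. Slc10a2 had 1.31 and 0.366 CPM in WT and 0.713 and 0.326 CPM in Vil-CREPTKO (-0.70, standard error 0.70, adjusted p = 0.73, edgeR). Fabp6 had 0.568 and 0.203 CPM in WT and 0.460 and 0.550 CPM in Vil-CREPTKO (0.39, standard error 0.65, adjusted p = 0.86, edgeR). In both, WT replicate 1 exceeded WT replicate 2, as in 3 others of the set (Dgat2, Hnf4g and Cdx1), and the WT libraries spanned much of the range seen.

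The enzymes that rebuild triglyceride had fitted values above 0 that did not pass. Dgat1, which adds the last fatty acid, was the most abundant per kb, at 590 and 614 CPM in WT and 842 and 677 CPM in Vil-CREPTKO (0.34, standard error 0.19, adjusted p = 0.48, edgeR), and its groups did not overlap. Dgat2, which catalyses the same step, differed 2.46-fold between the knockout libraries, at 478 and 194 CPM against 283 and 251 CPM in WT. Mogat2, the monoacylglycerol acyltransferase, stood at 249 and 315 CPM in WT and 361 and 268 CPM in Vil-CREPTKO.

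None of the genes of chylomicron assembly passed the test. Ratios among the apolipoproteins are given as a description, for pairs picked after the values were seen. Apoa1 had 2642 and 3469 CPM in WT and 5604 and 3034 CPM in Vil-CREPTKO (0.50, standard error 0.33, adjusted p = 0.57, edgeR). Apoa4, its neighbour on chromosome 9 and another apolipoprotein of chylomicrons, had 732 and 1181 CPM in WT and 815 and 437 CPM in Vil-CREPTKO (-0.61, standard error 0.32, adjusted p = 0.45, edgeR). Replicate 1 lay between the WT libraries for Apoa4, and replicate 2 below both, at 0.457 of the WT mean. The ratio of Apoa4 to Apoa1 was 0.277 and 0.340 in WT against 0.145 and 0.144 in Vil-CREPTKO. The ratio of Apoc3, from the same cluster, to Apoa1 was 0.0901 and 0.0918 in WT against 0.0639 and 0.0632 in Vil-CREPTKO. Apob, the structural protein of chylomicrons, and Mttp, which loads it with lipid, had log2 fold changes of -0.07 and 0.22. The antisense gene Gm47528 overlaps Apoa4, and 60.9% of the 50-base stretches of Apoa4 occur there or in another gene, but it held only 7.01 to 14.9 CPM.

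The structural genes Vil1 and Ezr had fitted values of opposite sign, and neither passed. Villin (Vil1), which bundles actin in the microvilli and whose promoter drives the Cre transgene, stood at 1656 and 2153 CPM in WT and 1694 and 1250 CPM in Vil-CREPTKO (-0.37, standard error 0.25, adjusted p = 0.57, edgeR). Ezrin (Ezr), which links the microvillus membrane to actin, stood at 636 and 846 CPM in WT and 1294 and 907 CPM in Vil-CREPTKO (0.57, standard error 0.24, unadjusted p = 0.042, adjusted p = 0.32, edgeR). Both knockout libraries lay above both WT libraries for Ezr, and replicate 2 below both for Vil1. The ratio of Vil1 to Ezr was 2.60 and 2.55 in WT against 1.31 and 1.38 in Vil-CREPTKO. Krt20, a keratin of differentiated enterocytes, and Cbr1, a carbonyl reductase, had log2 fold changes of 0.39 and -0.14.

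**Figure D3:**
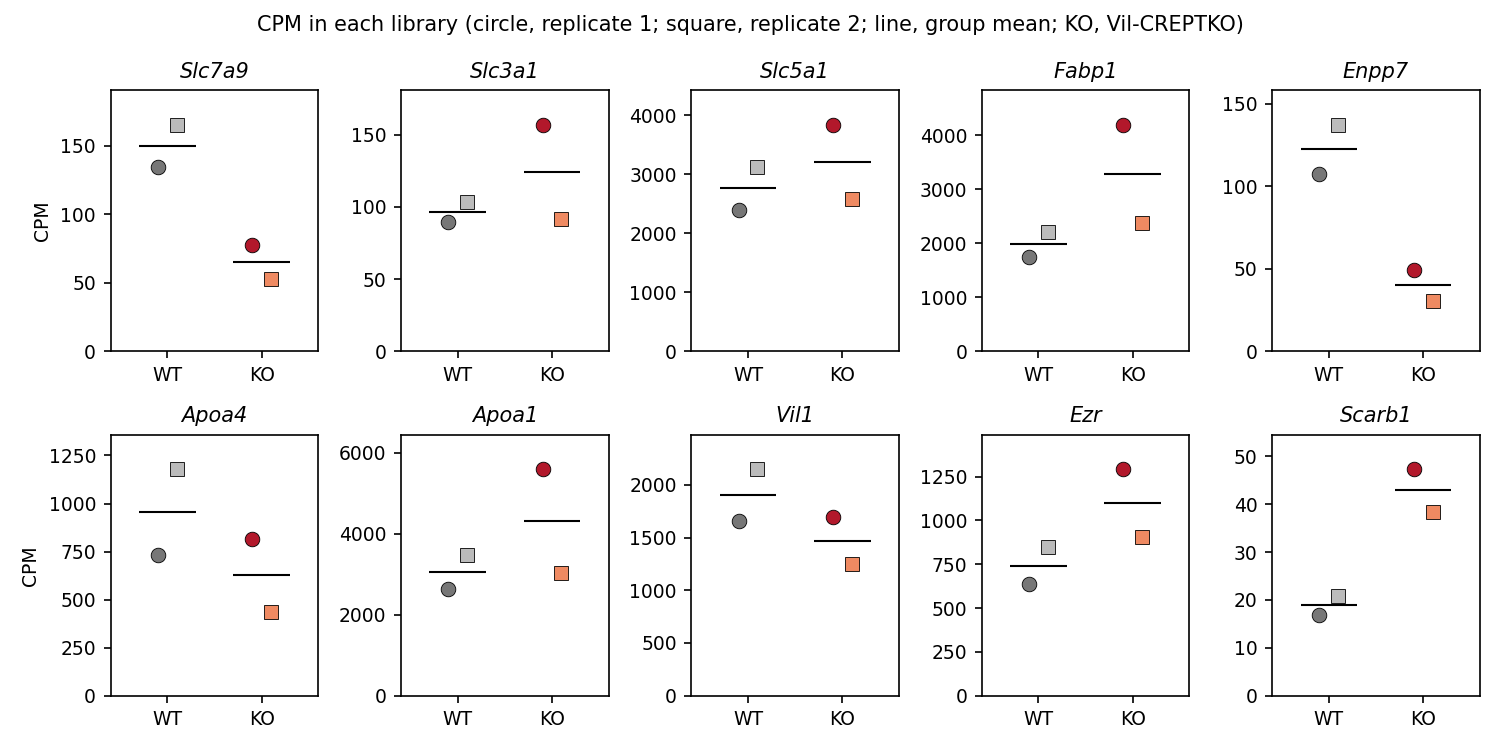
Level in CPM of 10 genes in each library, 8 of the set together with Enpp7 and Scarb1, with circles for replicate 1, squares for replicate 2 and lines at the group means; each panel has its own axis from 0. Slc7a9 and Enpp7 lie lower and Scarb1 higher in both knockout libraries, while Slc3a1, Slc5a1 and Apoa1 are high in replicate 1 only.

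The transcription factors did not share the order of the libraries. Hnf4a had 817 and 918 CPM in WT and 762 and 856 CPM in Vil-CREPTKO (-0.10, standard error 0.19, adjusted p = 0.87, edgeR). Hnf4g had 358 and 347 CPM in WT and 473 and 408 CPM in Vil-CREPTKO, with both knockout libraries above both WT libraries (0.32, standard error 0.16, adjusted p = 0.42, edgeR). Cdx1 and Cdx2, the caudal factors of intestinal identity, had log2 fold changes of 0.01 and -0.11. Over these 4 genes the median difference from the WT mean was -0.09 in replicate 1 and 0.02 in replicate 2, beside 0.38 and -0.077 for the whole set.

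To describe genes apart from this shared movement, the median deviation of the 41 genes was taken from each library as an offset. The offsets were -0.23 and 0.11 in WT against 0.33 and -0.22 in Vil-CREPTKO, in log2 CPM. After subtraction Slc7a9 was 1.34 and 1.33 below the WT mean in replicates 1 and 2 where the raw differences were -0.95 and -1.49, and the WT libraries differed by -0.04. Apoa4 was at -0.58 and -0.93 and Vil1 at -0.55 and -0.44. Fabp1 was at 0.70 and 0.43 and Ezr at 0.43 and 0.46. These genes were not alone, as 11 of the 41 lay below and 13 above WT without overlap after subtraction. The same count over all genes was not made, so this is a description only. In the levels without this subtraction, 1 gene of the set lay below WT in both knockout libraries and 5 lay above without overlap of the groups, where 24.2% and 21% of all genes do so. A fit of all genes scaled by these offsets, chosen after the values were seen, gave Slc7a9 a log2 fold change of -1.34 with a standard error of 0.39 (adjusted p = 0.061, edgeR), so that the call was lost there. That scaling sets the centre of the set to about 0 by construction and left 105 of all genes lower and 37 higher.

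**Figure D4:**
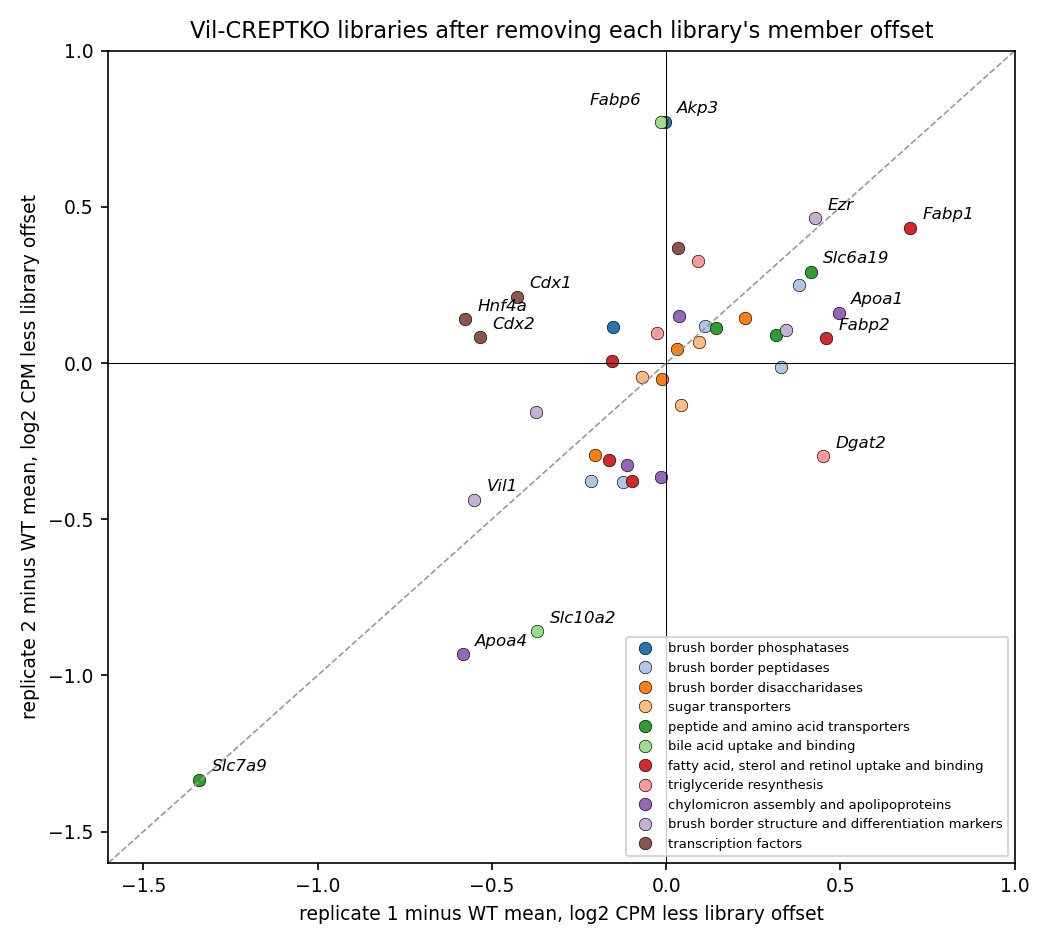
Difference from the WT mean of Vil-CREPTKO replicate 1 (horizontal) and replicate 2 (vertical) for the 41 genes, in log2 CPM after subtraction of each library's offset, coloured by role, with the dashed line marking equal values. Both axes share the WT libraries, so the lean of the points along the dashed line is no result. Slc7a9 lies at -1.34 and -1.33, and Vil1 and Apoa4 lie below 0 and Ezr and Fabp1 above 0 in both libraries.

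A further 54 genes of the enterocyte, of the brush border, its other hydrolases, other transporters and lipid handling, showed the same order of the libraries. Vil-CREPTKO replicate 1 was above replicate 2 in 49 of 54 and WT replicate 2 above WT replicate 1 in 48. Of these 54 genes 1 was lower and 1 was higher in Vil-CREPTKO, beside 2.29% and 0.423% of all genes. Enpp7, the alkaline sphingomyelinase of the brush border, fell from 108 and 138 CPM in WT to 49.5 and 30.6 CPM in Vil-CREPTKO (fitted log2 fold change -1.61, standard error 0.22, adjusted p = 0.0085, edgeR). Scarb1, the receptor SR-BI for HDL cholesterol, rose from 16.9 and 20.9 CPM to 47.4 and 38.4 CPM (1.18, standard error 0.16, adjusted p = 0.0087, edgeR). Both separated the groups as Slc7a9 did, and the ratio of Enpp7 to Slc5a1 was 0.0448 and 0.0439 in WT against 0.0129 and 0.0119 in Vil-CREPTKO.

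Markers of position along the gut were compared for the same libraries. None of 5 proximal genes and none of 5 tested distal genes passed in either direction, with summed levels of 515 and 618 CPM in WT and 529 and 668 CPM in Vil-CREPTKO for the proximal list and 257 and 413 CPM against 307 and 224 CPM for the distal list. Of 6 colon genes 3 were tested, and the 6 summed to 12.9 and 13.6 CPM in WT and 22.5 and 23.3 CPM in Vil-CREPTKO. B3galt5 was the 1 colon gene that passed. It rose from 6.21 and 6.16 CPM to 13.4 and 17.1 CPM (1.30, standard error 0.19, adjusted p = 0.011, edgeR). Among the other epithelial lists, 3 of 5 tuft cell genes (Trpm5, Avil and Sh2d6) and 1 of 6 Paneth cell genes (Pnliprp2) were lower. Of 7 goblet cell and 8 enteroendocrine genes, 0 passed. Of all genes, 2.29% were lower and 0.423% higher.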

How the data were processed

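RNA-seq was carried out on intestinal crypts of 2 WT and 2 Vil-CREPTKO mice, grouped by the sample titles. The authors deposited whole-number counts per gene for each library. They named CASAVA 1.8 for base calls, Bowtie2 for mapping to reference transcripts of GRCm38.p6 and RSEM for expression levels. The strand setting and the versions of Bowtie2 and RSEM are not given in the sources used here, so reads of overlapping genes may have gone to either gene. Ensembl identifiers were matched to GENCODE M21, and exon length is the union over transcripts.

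Genes passing edgeR's filterByExpr (17504 of 53845) were scaled by TMM and tested with the quasi-likelihood test (edgeR 4.0.16, limma 3.58.1, R 4.3.3), adjusted by Benjamini-Hochberg over all genes tested. A gene passed at an adjusted p under 0.05. Log2 CPM used a prior count of 2. On simulated counts 178 of 200 changed genes were recovered, with 7 false calls. That count gives no recovery rate for changes of the size seen in this set, and recovery at that size was not tested. DESeq2 1.42.0, other scalings and filters, a replicate block and leaving out each library were alternatives. Full values were given for members that passed, that differed by over 1 log2 from the WT mean in a knockout library or that were most abundant per kb in WT in their role. Fabp2, Slc15a1, Slc3a1, Akp3, Ezr, Hnf4g, Dgat2, Mogat2 and members given in part were added after their values were seen. Members and lists were chosen with earlier results of these data known. P-values reflect the spread between these libraries, and counting limits cover counting error only.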

Additional observations from a re-analysis of the deposited data

How the results depend on the processing

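Slc7a9 stayed lower and passed under DESeq2, RLE, upper-quartile and total-count scaling, both filters and every fit without 1 library, but not when the libraries were scaled on the members (0 members passing, 105 genes lower, 37 higher, 1030 at an unadjusted p under 0.05). DESeq2 called 1 member higher and, of all genes, 654 lower and 182 higher against 400 and 74. Without a filter on low counts 1 member was higher, and 908 genes were lower and 325 higher. The cause of these shifts was not tested. Without 1 library, 248 to 371 genes were lower and 51 to 130 higher. The replicate block gave 1 member lower and 0 higher, with 452 genes lower and 106 higher. Under it the median member change was 0.15 and no call among members changed. Over genes, the deviations of same-numbered libraries from their group means correlated at r = 0.028. With 2 libraries a group this value cannot show whether same-numbered libraries were prepared together, and that was not tested. The sign of the log2 fold change turned for Apoc3 under DESeq2 (0.0018), RLE (0.0017) and upper-quartile scaling (0.023), for Slc2a2 (-0.011), Slc2a5 (-0.024), Npc1l1 (-0.066) and Cdx1 (-0.088) under total counts, and, scaled on the members, for Alpi (-0.013), Sis (-0.031), Slc2a2 (-0.048), Slc2a5 (-0.056), Npc1l1 (-0.078) and Cdx1 (-0.098). It turned in at least 1 fit without a library for 29 of 41 members, none of which passed, over these ranges: Ace -0.57 to 0.25, Alpi -0.076 to 0.29, Anpep -0.066 to 0.51, Apoa1 -0.013 to 0.88, Apob -0.50 to 0.27, Apoc3 -0.54 to 0.37, Cbr1 -0.32 to 0.025, Cd36 -0.54 to 0.30, Cdx1 -0.10 to 0.12, Dgat2 -0.46 to 0.85, Dpp4 -0.56 to 0.16, Fabp2 -0.089 to 0.85, Fabp6 -0.17 to 1.30, Krt20 -0.063 to 0.73, Lct -0.50 to 0.27, Mgam -0.13 to 0.42, Mme -0.19 to 0.71, Mogat2 -0.075 to 0.36, Mttp -0.023 to 0.42, Npc1l1 -0.23 to 0.34, Rbp2 -0.48 to 0.23, Sis -0.22 to 0.38, Slc10a2 -1.37 to 0.50, Slc15a1 -0.080 to 0.58, Slc2a2 -0.32 to 0.41, Slc2a5 -0.21 to 0.32, Slc3a1 -0.074 to 0.71, Slc5a1 -0.11 to 0.48, Treh -0.023 to 0.62. The members' median difference from WT stayed at 0.22 to 0.55 in Vil-CREPTKO replicate 1 and ran from -0.28 to 0.041 in replicate 2, whose sign depended on the WT library used. Slc10a2 and Fabp6 rest on 10 to 67 counts a library.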
